A study of Homo sapiens with 6 samples.

Results

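The 14-3-3 protein genes described here were YWHAB, YWHAE, YWHAG, YWHAH, YWHAQ and YWHAZ, which encode the beta, epsilon, gamma, eta, theta and zeta isoforms. The members were the 6 genes chosen by name, and their reads were taken from windows on build hg19: chr20:43514000-43539000 on the plus strand for YWHAB, chr17:1246500-1304000 on the minus strand for YWHAE, chr7:75954500-75989000 on the minus strand for YWHAG, chr22:32340000-32355000 on the plus strand for YWHAH, chr2:9722500-9771500 on the minus strand for YWHAQ and chr8:101929500-101966500 on the minus strand for YWHAZ. These windows held 29 of the 49965 poly(A) sites of the series. The 49695 sites on nuclear chromosomes fall into 28114 units of neighbouring sites. SFN, the remaining human 14-3-3 gene, was not analysed here.

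14-3-3 proteins form dimers that bind phosphorylated serine or threonine motifs in many client proteins, among them RAF kinases, CDC25 phosphatases and the cell death protein BAD, and so control where these clients lie and whether they are active. Their messenger RNAs can end at more than 1 place, because a transcript is cut and polyadenylated at any of several poly(A) sites. Cleavage factor Im (CF Im), a complex of the small subunit CF Im25 with CF Im59 or CF Im68, binds UGUA motifs in the nascent RNA upstream of poly(A) sites. Use of an upstream (proximal) site gives a shorter RNA than use of a downstream (distal) site.

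The libraries came from the cell line HEK293, derived from human embryonic kidney, and were made by A-seq, which counts the 3' ends of polyadenylated RNA. Alkaline hydrolysis was used to fragment the RNA of cells given CF Im25 siRNA, CF Im59 siRNA, the scrambled-A control siRNA or no siRNA, and RNase I that of cells given CF Im68 siRNA or scrambled-A siRNA. The label of the CF Im68 library also carries a 2, whose meaning is not given. Cells with siRNA were harvested 3 days after transfection. Each of the 6 groups was 1 library, with 5351980 to 18183644 reads in all and 8600 to 19956 reads in the windows of the 14-3-3 genes, so no difference could be set against a spread between replicates. The intervals given below are 95% intervals for counting error only, and PCR copies of a molecule are not independent counts. Whether the siRNA targets were depleted was not analysed here. Levels are given in CPM (counts scaled to the library's reads at sites on nuclear chromosomes). Only 3' ends are counted, so no scaling by length was applied, but the level of a gene also differed with the fragmentation method, by up to 3.69-fold for YWHAG. Levels of different genes are set side by side within a library, as reads and not as numbers of RNA molecules.

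The annotated 3' ends of 5 of the genes are shown because the poly(A) signal in them is the motif that the cleavage machinery reads. For YWHAQ-201 an upstream copy is shown as well, the AATAAA or ATTAAA farthest from the transcript's end. The other transcripts were examined for a signal in their last 35 bases only. Each stretch was read from the named transcript of GENCODE release 29, an annotation on build GRCh38, as the bases from the signal towards the transcript's end. The signal AATAAA is in capitals.
YWHAB-201: AATAAAaattttatcagttagttgcctgtg
YWHAE-208: AATAAAacaaacctaaattaaaaatgccaa
YWHAG-201: AATAAActtacagatctgacgcca
YWHAH-201: AATAAAtgctgctttggggatatta
YWHAQ-201, end: AATAAAgtggacattttaaaactagcaaa
YWHAQ-201, upstream copy: AATAAAaattcacttacacctcctgccttt
For YWHAZ no sequence is shown. In YWHAZ-206, YWHAZ-205 and YWHAZ-202 no AATAAA or ATTAAA was found in the last 35 bases, and TGTA was found in the last 100 bases of YWHAZ-205, with 1 copy, and in neither of the others.
The signal began 32, 30, 24, 25 and 29 bases before the end of YWHAB-201, YWHAE-208, YWHAG-201, YWHAH-201 and YWHAQ-201. Of 72476 distinct ends of protein-coding transcripts in the annotation, 37.8% had AATAAA or ATTAAA in the last 35 bases on the transcript strand. The letters TGTA, the DNA form of the CF Im motif, stood in the last 100 bases of YWHAB-201, YWHAE-208, YWHAG-201 and YWHAQ-201, with 1 copy in each, and were not found in that window of YWHAH-201. Of the 27413 annotated ends with a signal, 52.9% held TGTA in that window. The annotation and the read positions belong to different builds and were not joined, so that only distances are set side by side.

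YWHAE and YWHAB gave most of the 14-3-3 ends and YWHAZ the fewest in all 6 libraries. YWHAE, whose product is the epsilon isoform, had 548 CPM with CF Im25 siRNA, 613 with CF Im59 siRNA, 577 with scrambled siRNA and 593 with no siRNA in the alkaline libraries, and 499 with CF Im68 siRNA and 717 with scrambled siRNA in the RNase I libraries. YWHAB had 250, 206, 734 and 407 CPM in the same order of alkaline libraries, and 784 and 639 CPM in the RNase I libraries. YWHAE therefore varied 1.44-fold between its highest and lowest library, and YWHAB 3.80-fold, with its lowest values in the alkaline CF Im25 and CF Im59 libraries. The YWHAB range runs from an alkaline to an RNase I library, and within the alkaline libraries YWHAB varied 3.56-fold.

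YWHAG, which encodes the gamma isoform, was the third in every library, at 91.8 to 124 CPM in the alkaline libraries and at 247 and 339 CPM with CF Im68 and scrambled siRNA in the RNase I libraries. The fourth was YWHAQ, the gene of the theta isoform, at 35.9 to 65.2 CPM, and the fifth was YWHAH, the gene of the eta isoform, at 20.6 to 40.2 CPM. YWHAZ had 5.58, 4.08, 4.84 and 3.26 CPM with CF Im25, CF Im59, scrambled and no siRNA, and 7.21 and 11.3 CPM with CF Im68 and scrambled siRNA after RNase I. The order of the 4 lower genes was the same in all 6 libraries, while YWHAB lay above YWHAE with scrambled siRNA after alkaline hydrolysis and with CF Im68 siRNA and below it in the other libraries. The Poisson intervals of neighbours in this order did not overlap within any library. They cover counting error only. The YWHAZ level is uncertain beyond that, with 52.7% to 65.4% of its window's reads at its sites and 10 pseudogenes listed in RefSeq. Whether its reads were lost to such copies was not tested.

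**Figure D1:**
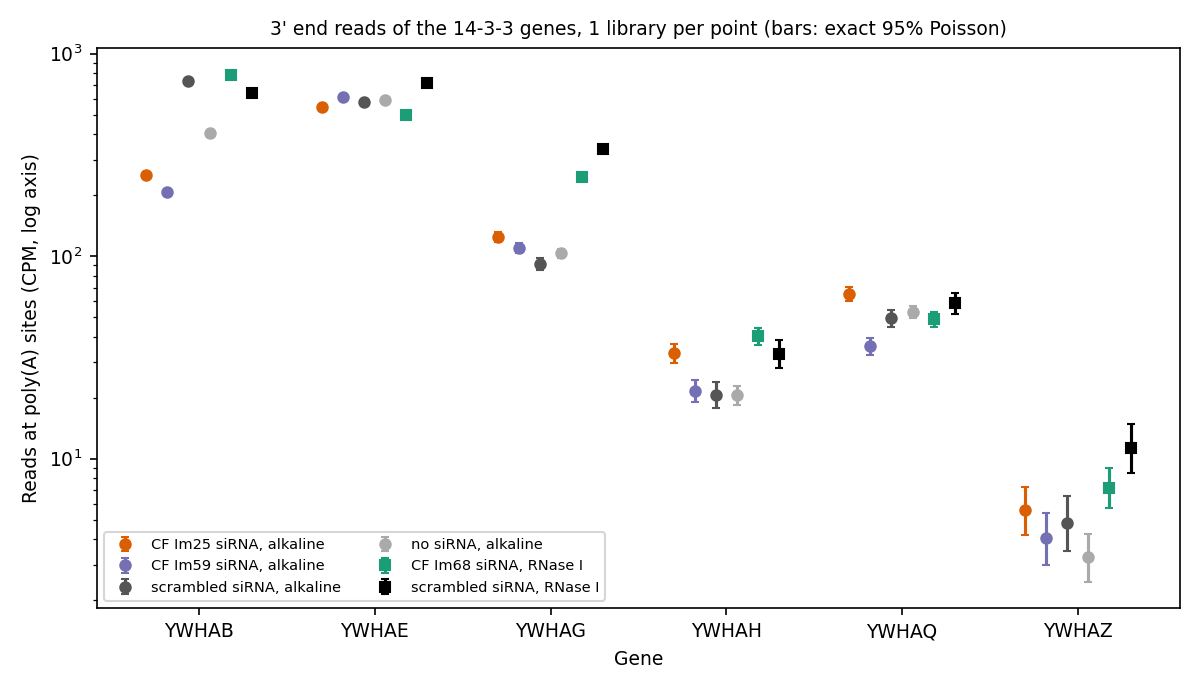
Reads at the poly(A) sites of each 14-3-3 gene in CPM on a log axis, 1 point per library (circles, alkaline hydrolysis; squares, RNase I), with exact 95% Poisson intervals. YWHAE stays between 499 and 717 CPM, YWHAB spreads from 206 to 784 CPM, and YWHAZ lies lowest in all 6 libraries.

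Poly(A) sites differed in number and spacing from gene to gene. A site is the highest position with the ends within 25 nt on either side, at a mean of at least 1 CPM over the libraries, and 13 of the 29 sites held at least 5% of the reads of their window in the mean over libraries. YWHAG had a single such site, at 75956117, with 93.7% to 98.1% of the window's reads in every library, and so offers no choice of site to compare. YWHAE had 2, at 1247845 and 64 nt downstream at 1247781, and YWHAQ had 2, at 9724744 and 640 nt downstream at 9724104. The farthest upstream AATAAA of YWHAQ-201 and the terminal one begin 637 bases apart, 3 fewer than the distance between the YWHAQ sites. Whether other copies lie between them was not examined.

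YWHAB had 3 such sites, at 43535146, 43536093 and 43536798, and a smaller one downstream of these at 43537172. YWHAH had a site at 32353590 and another at 32341231, 12359 nt upstream of it. The whole of YWHAH-201 is 1825 bases long, last exon included, so these ends cannot lie in 1 exon of that transcript, whereas the distances between the YWHAB, YWHAE and YWHAQ sites are shorter than the last exons of YWHAB-201 (2151 bases), YWHAE-208 (960 bases) and YWHAQ-201 (1374 bases). YWHAZ had sites at 101938447, 101934633 and 101930906, with at most 50 reads each in any library.

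Read ends at a site were spread over several nucleotides in most cases. The number of positions used was not adjusted for the number of reads at a site. The main YWHAB site at 43535146, with 1233 to 7912 reads per library, used 30 to 43 positions. Its top position held 51.1% of its reads in the CF Im68 siRNA library, 59.8% in its scrambled siRNA control and 62.3% to 78.1% in the alkaline libraries. The YWHAH site at 32341231, with 11 to 180 reads per library, used 4 to 9 positions, with 54.2% to 62.8% of reads at the top one. The YWHAZ sites at 101938447 and 101934633 instead had all reads at 1 position in 4 and 3 of the 6 libraries. The third YWHAZ site, at 101930906, had 31.3% to 43.8% at its top position. Whether internal priming moves with these patterns was not tested.

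**Figure D2:**
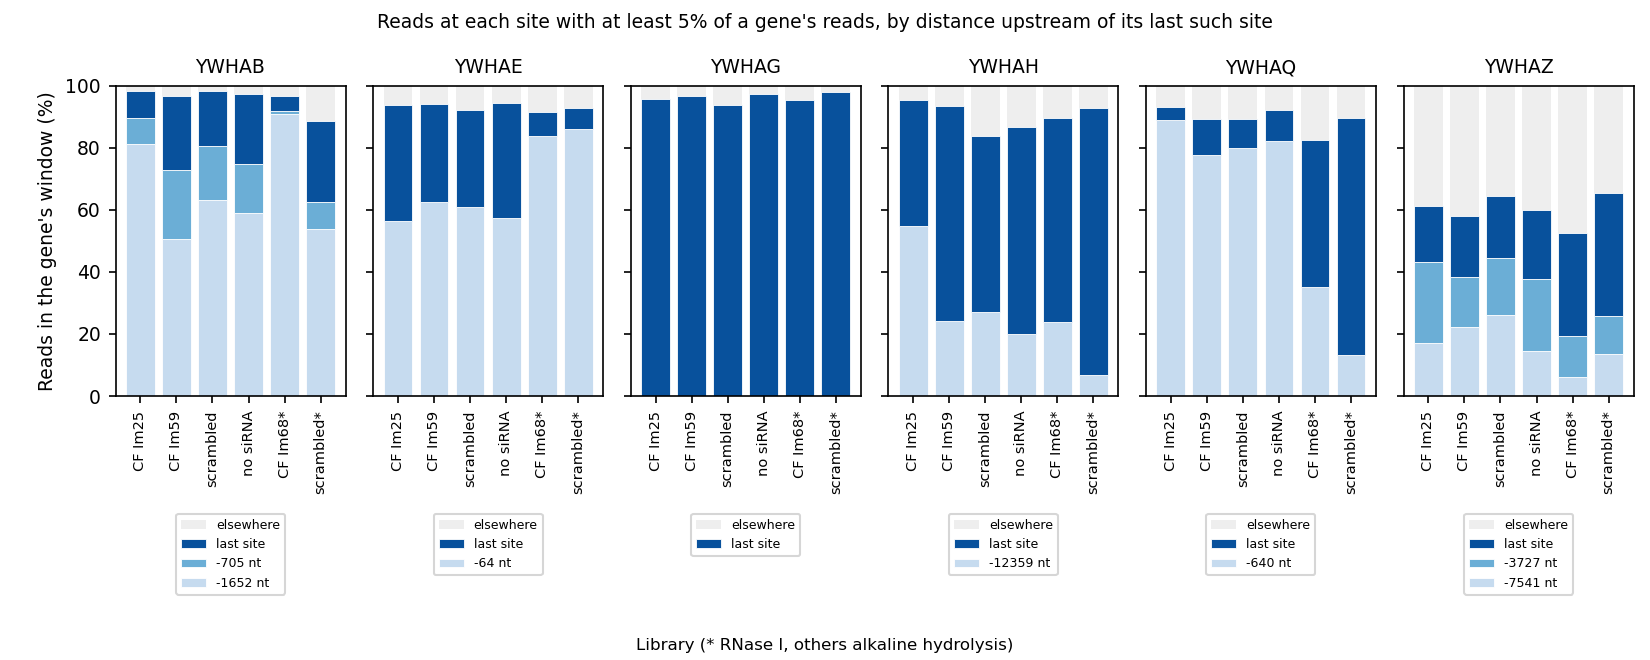
Share of the reads in each gene's window (y axis, percent) that lie at each site with at least 5% of them, by library, with sites named by their distance upstream of the last one; libraries with an asterisk were fragmented with RNase I. The upstream site of YWHAH holds the largest share with CF Im25 siRNA, and the last site of YWHAQ holds the larger part of the bar in both RNase I libraries.

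The comparison of CF Im68 siRNA with scrambled siRNA in the RNase I libraries asks whether site choice moved when the larger subunit was targeted. For a gene's 2 most used sites, the proximal share gives the upstream site's part of their summed reads, in percent. A gene was called shifted at a difference of 20 points or more, with 50 or more reads at the pair in each library and a Newcombe interval that excluded 0. YWHAB and YWHAQ were shifted to the proximal site, 2 of the 4 genes with enough reads, and none to the distal site. Over all 5291 pairs of sites tested in the series, 24.4% were called proximal and 1.78% distal by the same rule, 26.2% in either direction. Pairs of the series were taken within units, whose neighbouring sites lie at most 5 kb apart. The YWHAH pair spans a wider gap and is not among them, here or in the later comparisons.

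YWHAB, whose beta isoform binds RAF kinases, had 7912 proximal and 406 distal reads with CF Im68 siRNA, a proximal share of 95.1%, against 1637 and 788 reads with scrambled siRNA, a share of 67.5%. The share thus rose by 27.6 points (interval 25.7 to 29.6). At the proximal site the level was 722 CPM with CF Im68 siRNA and 349 CPM with scrambled siRNA, a ratio of 2.07 (interval 1.96 to 2.18). At the distal site it was 37.1 and 168 CPM, 4.54-fold lower with CF Im68 siRNA (interval 4.02 to 5.13). The middle site at 43536093, which is not part of the pair, was lower as well, with 8.40 CPM with CF Im68 siRNA and 55.9 CPM with scrambled siRNA, 6.66-fold lower (interval 5.23 to 8.54). The middle and distal sites of YWHAB were therefore both lower while the upstream site was higher. Its 4 smaller sites together held 2.02% of the window's reads with CF Im68 siRNA and 10.2% with scrambled siRNA.

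YWHAQ had 223 proximal and 303 distal reads with CF Im68 siRNA, a share of 42.4%, against 40 and 232 reads with scrambled siRNA, a share of 14.7%. Its share rose by 27.7 points (interval 21.4 to 33.3), and the distal site remained the more used one of the pair with CF Im68 siRNA. The proximal site stood at 20.4 CPM with CF Im68 siRNA and 8.53 CPM with scrambled siRNA (ratio 2.39, interval 1.70 to 3.43), and the distal site at 27.7 and 49.5 CPM (1.79-fold lower, interval 1.50 to 2.13). YWHAQ and YWHAB so had the same pattern at single sites, with the proximal end higher and the distal end lower in CPM.

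YWHAH lay just under the threshold. It had 114 proximal and 314 distal reads with CF Im68 siRNA, a share of 26.6%, against 11 and 141 reads with scrambled siRNA, a share of 7.24%, a difference of 19.4 points (interval 12.8 to 24.8). With ends joined within 10 nt the difference was 21.5 points, which passes the rule. The upstream site was at 10.4 CPM with CF Im68 siRNA and 2.35 CPM with scrambled siRNA (ratio 4.43, interval 2.39 to 9.13). The last site had 28.7 and 30.1 CPM, a ratio of 0.953 (interval 0.779 to 1.17). In YWHAH the upstream end was thus higher with CF Im68 siRNA, and the interval for the last end included no difference. YWHAE, with sites 64 nt apart, had proximal shares of 91.4% with CF Im68 siRNA and 92.6% with scrambled siRNA, a difference of -1.18 points (interval -2.36 to 0.04).

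**Figure D3:**
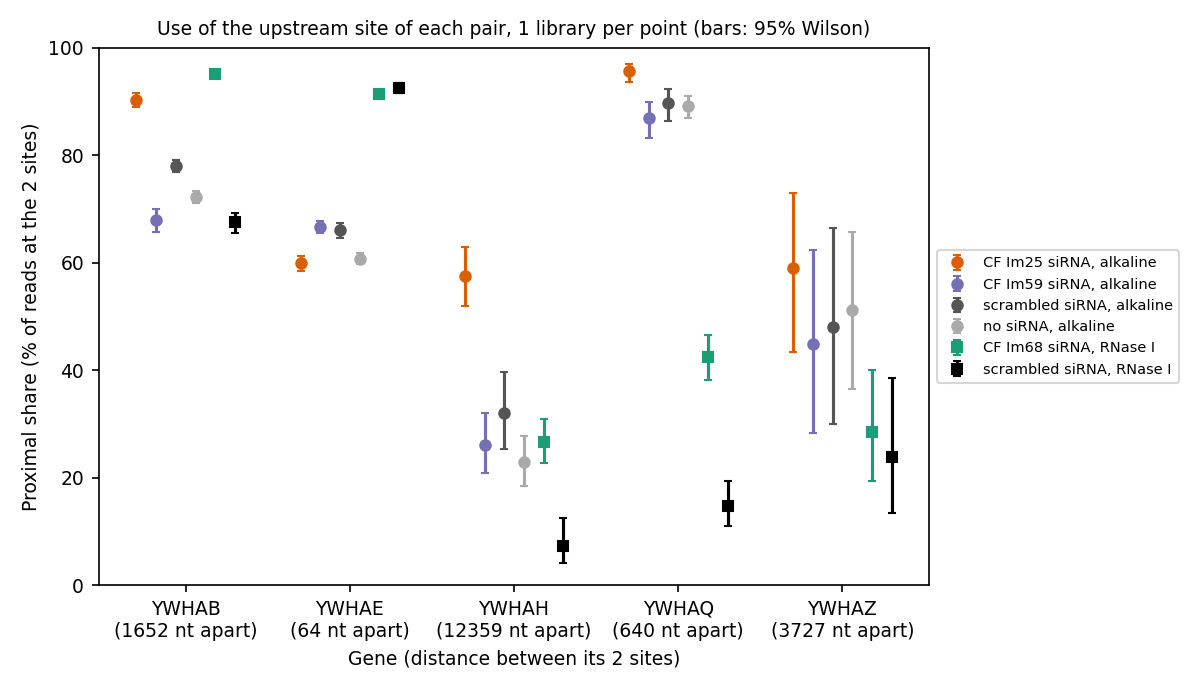
Proximal share (y axis, percent of the reads at the 2 sites) of the 5 genes with a pair of sites in each library, with 95% Wilson intervals; the distance between the sites stands under each gene. YWHAB lies highest with CF Im68 siRNA (95.1%) and CF Im25 siRNA (90.3%), YWHAH lies highest with CF Im25 siRNA (57.5%), and YWHAQ lies between 86.9% and 95.6% in the alkaline libraries but at 42.4% and 14.7% in the RNase I libraries.

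After CF Im25 siRNA, YWHAH alone was called shifted, to the proximal site, among the 4 genes with enough reads. Over all 6702 pairs tested, 18.3% were called proximal and 2.81% distal, 21.1% in either direction. The YWHAH sites, 12359 nt apart, fall in separate units, so the YWHAH pair is not one of these pairs. YWHAH had 180 proximal and 133 distal reads with CF Im25 siRNA, a share of 57.5%, against 52 and 110 reads with scrambled siRNA, a share of 32.1%. The rise was 25.4 points (interval 16.1 to 34.0). Against no siRNA, where the share was 22.9%, it was 34.7 points (interval 27.2 to 41.5), which passes the rule as well. Against no siRNA 20.4% of 7209 pairs were called proximal and 1.96% distal, 22.4% in either direction. The upstream site stood at 18.6 CPM with CF Im25 siRNA, 5.99 CPM with scrambled siRNA and 4.35 CPM with no siRNA. The ratio of CF Im25 siRNA to scrambled siRNA was 3.11 there (interval 2.27 to 4.32), and 1.09 at the last site (interval 0.836 to 1.41), where the levels were 13.8 and 12.7 CPM. As with CF Im68 siRNA, the upstream end of YWHAH was higher and the interval for the last end included no difference.

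The other pairs moved by less than 20 points after CF Im25 siRNA. YWHAB had a share of 90.3% with CF Im25 siRNA and 78.1% with scrambled siRNA, a difference of 12.3 points (interval 10.6 to 13.9). All 3 of its sites had fewer CPM with CF Im25 siRNA: 206 against 468 CPM with scrambled siRNA at the proximal site (2.28-fold lower, interval 2.16 to 2.40), 21.6 against 131 CPM at the middle site (6.06-fold lower, interval 5.22 to 7.05) and 22.0 against 132 CPM at the distal site (5.97-fold lower, interval 5.16 to 6.95). Against no siRNA the CF Im25 siRNA library was 1.19-fold lower at the proximal site (interval 1.13 to 1.26), 3.03-fold lower at the middle site (interval 2.61 to 3.53) and 4.27-fold lower at the distal site (interval 3.69 to 4.95). With either control the 2 downstream sites were lower by a larger factor than the upstream one. For YWHAQ the shares were 95.6% with CF Im25 siRNA and 89.7% with scrambled siRNA, and the difference was 5.91 points (interval 2.69 to 9.50). For YWHAE they were 59.9% and 66.1%, a difference of -6.17 points (interval -8.08 to -4.26), but against 60.8% with no siRNA the difference was -0.887 points (interval -2.56 to 0.784). The median change of the 4 genes with enough reads was 9.09 points, against 4.19 points over all pairs tested. Between the controls, scrambled siRNA against no siRNA, the same medians were 5.54 and 1.15 points. The median of the 4 genes thus lay above that of the series there too. Not every gene did, with YWHAE at -6.17 points after CF Im25 siRNA and YWHAQ at 0.558 points between the controls.

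After CF Im59 siRNA none of the 4 genes with enough reads was called shifted, where 2.53% of 6889 pairs were called proximal and 4.76% distal, 7.29% in either direction. With 1 library per group no unadjusted p is available beside this 0. Proximal shares with CF Im59 siRNA and scrambled siRNA were 67.9% and 78.1% for YWHAB, a difference of -10.1 points (interval -12.6 to -7.73). Against the 72.3% with no siRNA the difference was -4.34 points (interval -6.81 to -1.92), and none of the 4 genes was called there, where 1.62% of 7489 pairs were called proximal and 2.08% distal, 3.7% in either direction. For YWHAE, YWHAH and YWHAQ the intervals of the difference from scrambled siRNA included 0, with differences of 0.551, -6.05 and -2.79 points. The CF Im25 and CF Im59 comparisons share the scrambled siRNA library. The CF Im25 and CF Im59 libraries themselves gave 57.5% and 26.1% for YWHAH, with Wilson intervals of 52.0 to 62.9 and 20.9 to 32.0, and 90.3% and 67.9% for YWHAB, with intervals of 89.0 to 91.5 and 65.8 to 70.0.

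The controls show how far the genes differed without a targeting siRNA. Scrambled siRNA against no siRNA gave no call among the 4 genes with enough reads, where 2.52% of 7177 pairs were called proximal and 1.21% distal, 3.73% in either direction. Shares with scrambled siRNA and no siRNA were 78.1% and 72.3% for YWHAB, 66.1% and 60.8% for YWHAE, 32.1% and 22.9% for YWHAH, and 89.7% and 89.1% for YWHAQ. The differences were 5.79, 5.29, 9.24 and 0.558 points, and the interval included 0 for YWHAQ alone. Differences of a few points between single libraries of these genes were therefore also present between controls. The RNase I libraries analysed here include 1 control, so the same check was not made for them.

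**Figure D4:**
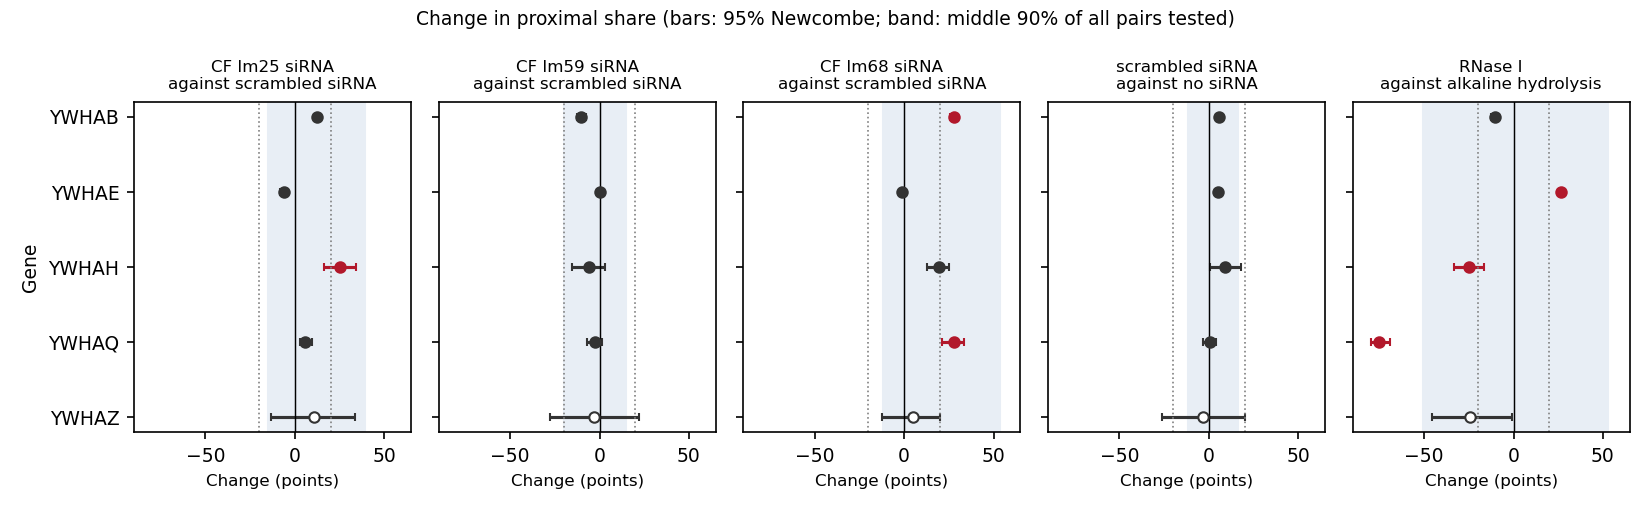
Change in proximal share in percentage points (x axis) in each comparison, as the group named first minus the group named second, with 95% Newcombe intervals; red points passed the rule, open points had under 50 reads in a library, dotted lines mark 20 points and the band spans the middle 90% of all pairs tested in the series. YWHAQ lies at -75.0 points for RNase I against alkaline hydrolysis, outside the band, and the shifts after CF Im25 and CF Im68 siRNA lie inside it. The band is of pairs within a unit and does not include the YWHAH pair.

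The libraries fragmented with RNase I and by alkaline hydrolysis differed in site use by up to 75.0 points, with scrambled siRNA in both. RNase I against alkaline hydrolysis gave calls for YWHAE, YWHAH and YWHAQ, 3 of the 4 genes with enough reads, where 24.7% of 5014 pairs were called proximal and 21.1% distal, 45.7% in either direction. YWHAE was shifted to the proximal site, and YWHAH and YWHAQ to the distal one. YWHAQ had 40 proximal and 232 distal reads after RNase I, a share of 14.7%, against 366 and 42 reads after alkaline hydrolysis, a share of 89.7%. Its share fell by 75.0 points (interval -79.5 to -69.2), so that the most used end of YWHAQ was the distal one in one protocol and the proximal one in the other. The distal site was at 49.5 CPM after RNase I and 4.84 CPM after alkaline hydrolysis (10.2-fold higher, interval 7.34 to 14.6), and the proximal site at 8.53 and 42.2 CPM (4.94-fold lower, interval 3.56 to 7.03).

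YWHAE went the other way, with 92.6% after RNase I and 66.1% after alkaline hydrolysis, a rise of 26.5 points (interval 24.9 to 28.1). Its downstream site, 64 nt from the upstream one, stood at 50.1 and 184 CPM. YWHAH had 7.24% after RNase I and 32.1% after alkaline hydrolysis, a change of -24.9 points (interval -33.0 to -16.3). The proximal share of YWHAB was 67.5% after RNase I and 78.1% after alkaline hydrolysis (difference -10.6 points, interval -12.7 to -8.39). Its farthest downstream end, at 43537172, had 185 reads, or 6.10% of the window's reads, after RNase I, and 6 reads, or 0.0931%, after alkaline hydrolysis. The libraries of the 2 methods may also differ in culture or in sequencing run, which cannot be told apart from fragmentation here. For this reason changes after CF Im68 siRNA are taken only against the RNase I control, and ranges over all 6 libraries also span the 2 methods.

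**Figure D5:**
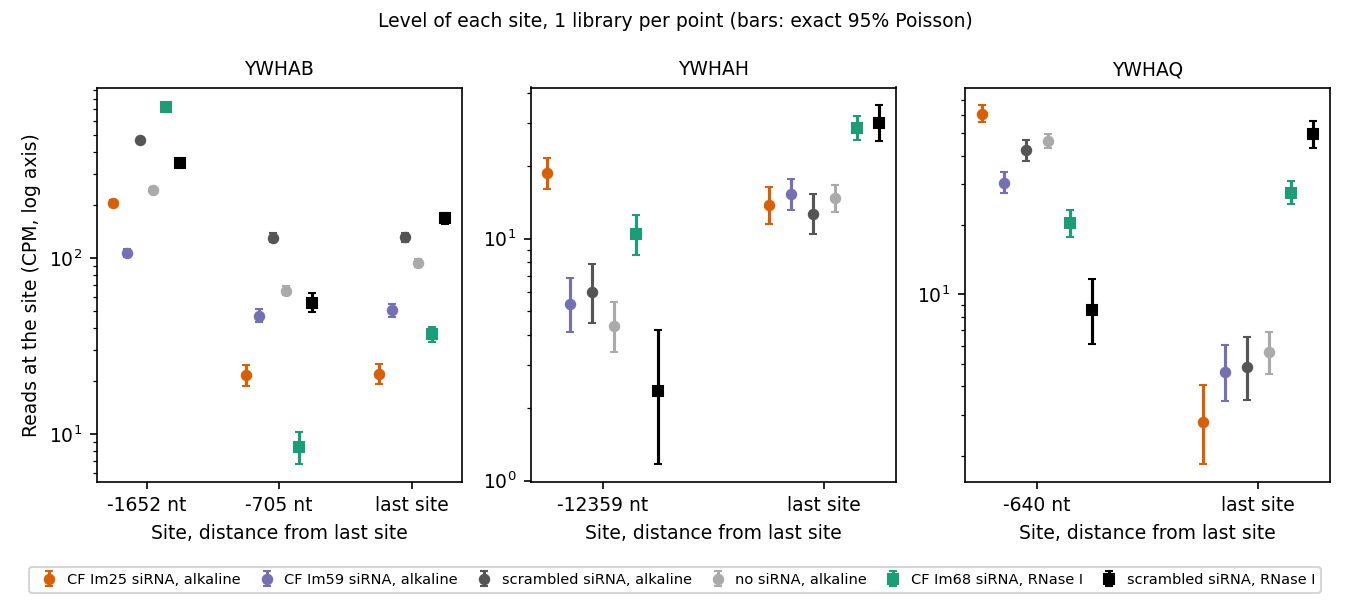
Level of each site of YWHAB, YWHAH and YWHAQ in CPM on a log axis, by distance upstream of the last site, 1 point per library with exact 95% Poisson intervals. With CF Im68 siRNA the first YWHAB site is at 722 CPM and the last at 37.1 CPM, against 349 and 168 CPM with scrambled siRNA after RNase I, and the upstream YWHAH site is highest with CF Im25 siRNA at 18.6 CPM.

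The reads summed over all sites of a gene show whether its level differed as well as its site. A level was called changed at a ratio of 2 or more in either direction, with 50 or more reads in at least 1 library and an exact interval that excluded 1. The level of a gene covers all sites in its window, while the shares over the series are of units. The sites of YWHAE, YWHAH and YWHAQ fall in more than 1 unit, so the 2 measures are not alike for these genes. In these bulk samples a lower level in every cell and fewer cells that express the gene cannot be told apart. YWHAB was lower in both alkaline libraries with a CF Im siRNA, and no other 14-3-3 gene was called in those comparisons. For CF Im59 siRNA 5 genes had enough reads, and YWHAZ could not be called, with 47 reads against 42 with scrambled siRNA.

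YWHAB had 250 CPM with CF Im25 siRNA and 734 CPM with scrambled siRNA, 2.93-fold lower (interval 2.80 to 3.07, log2 ratio -1.55). This was 1 gene of 6 called lower and 0 called higher, where 12.1% of 14983 units of the series were called lower and 13.1% higher, 25.2% in either direction. With CF Im59 siRNA it had 206 CPM, 3.56-fold lower than with scrambled siRNA (interval 3.39 to 3.73, log2 ratio -1.83). Of 15257 units, 11.1% were called lower and 8.61% higher there, 19.7% in either direction. The scrambled siRNA library itself lay above the no siRNA library at YWHAB, with 734 and 407 CPM, a ratio of 1.80 (interval 1.74 to 1.86). Against no siRNA the YWHAB level was 1.63-fold lower with CF Im25 siRNA (interval 1.55 to 1.71) and 1.97-fold lower with CF Im59 siRNA (interval 1.88 to 2.07), and neither passed the rule. The YWHAB calls therefore depend on which control library is used. Against no siRNA, 10.3% of 17207 units were called lower and 9.86% higher with CF Im25 siRNA, 20.2% in either direction, and 8.25% of 17146 lower and 4.94% higher with CF Im59 siRNA, 13.2% in either direction.

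The sites of YWHAB did not share 1 ratio after CF Im59 siRNA. The proximal site had 107 CPM with CF Im59 siRNA and 468 CPM with scrambled siRNA, 4.38-fold lower (interval 4.11 to 4.67). The middle site had 47.1 and 131 CPM, 2.78-fold lower (interval 2.51 to 3.08), and the distal site 50.5 and 132 CPM, 2.61-fold lower (interval 2.36 to 2.88). Against no siRNA the CF Im59 siRNA library was 2.29-fold lower at the proximal site (interval 2.15 to 2.44), 1.39-fold lower at the middle site (interval 1.25 to 1.54) and 1.86-fold lower at the distal site (interval 1.69 to 2.05). With either control the proximal end was lower by a larger factor than the distal end after CF Im59 siRNA, and by a smaller one after CF Im25 siRNA. Both comparisons use the same scrambled siRNA library.

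No 14-3-3 gene was called changed in level after CF Im68 siRNA, where 11.2% of 13531 units were called higher and 6.96% lower, 18.1% in either direction. YWHAB, the 14-3-3 gene with the most reads in the CF Im68 siRNA library, had 784 CPM with CF Im68 siRNA and 639 CPM with scrambled siRNA, a ratio of 1.23 (interval 1.18 to 1.28). The other ratios were 1.22 for YWHAH, 0.835 for YWHAQ, 0.730 for YWHAG, 0.695 for YWHAE and 0.638 for YWHAZ. The called shifts of YWHAB and YWHAQ thus came with differences in summed level of less than 2-fold.

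Scrambled siRNA against no siRNA gave no call in level either, where 4.3% of 16791 units were called higher and 4.29% lower, 8.59% in either direction. RNase I against alkaline hydrolysis gave calls for YWHAG and YWHAZ, both higher, 2 of 6 genes, where 23.8% of 14135 units were called higher and 34.8% lower, 58.6% in either direction. YWHAG had 339 CPM after RNase I and 91.8 CPM after alkaline hydrolysis, a ratio of 3.69 (interval 3.38 to 4.02), all at its single site. YWHAZ had 11.3 and 4.84 CPM, a ratio of 2.34 (interval 1.53 to 3.59), from 53 and 42 reads. YWHAG thus had no choice of site to compare and yet differed in level between the fragmentation methods.

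YWHAZ, which encodes the zeta isoform, had too few reads for calls of site use. Its pair held 25 to 70 reads in the 6 libraries, and its proximal shares were 59.0% with CF Im25 siRNA, 44.8% with CF Im59 siRNA, 48.0% with scrambled siRNA and 51.2% with no siRNA, and 28.6% with CF Im68 siRNA and 23.8% with scrambled siRNA after RNase I. The interval of its difference included 0 in each siRNA comparison, at -13.2 to 33.7 points for CF Im25 siRNA and -12.6 to 20.2 points for CF Im68 siRNA. For RNase I against alkaline hydrolysis the difference was -24.2 points (interval -45.4 to -0.963), which the minimum of 50 reads kept from being called. Its 3 sites held 52.7% to 65.4% of the window's reads, while the sites of the other genes held 84.0% to 98.9%. A position outside the site rule, 101932535, was chosen after its values were seen. It had 36 reads with CF Im68 siRNA and 0 with scrambled siRNA after RNase I, at least 5.13-fold higher against a floor of 3 reads in the control library, and 0 to 5 reads in the alkaline libraries.

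Copies of these genes elsewhere in the genome can take or give reads. RefSeq lists 10 pseudogenes each for YWHAQ and YWHAZ, 7 for YWHAE, 2 for YWHAB and 0 for YWHAG and YWHAH. In the last 200 bases of YWHAB-201, YWHAE-208, YWHAG-201, YWHAH-201 and YWHAQ-201, none of the 171 stretches of 30 bases occurred in an annotated transcript of another gene. Bases farther upstream were not examined, and the proximal sites of YWHAB, YWHAH and YWHAQ lie more than 200 nt upstream of their last sites. Of the 3 YWHAZ transcripts examined, YWHAZ-202 shared 73 of 171 such stretches with 6 other genes, and the other two shared 0. YWHAZ values are therefore uncertain, since how multiply mapping reads were handled is not given in the sources used here. Whether reads are shared at the proximal sites of YWHAB, YWHAH and YWHAQ was not tested.

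The pairs elsewhere whose proximal shares lay closest to those of YWHAH and YWHAQ over the 6 libraries were looked up among 4774 pairs with at least 50 reads in every library. The pairs searched each lie within a unit, whereas the YWHAH sites, 12359 nt apart, fall in separate units. The likeness is the root mean square difference in points, given as a description, since the 6 libraries are shared by all pairs. For YWHAH, the gene with the largest change after CF Im25 siRNA, the nearest was a pair on chromosome 6, minus strand, at 109688484 and 109687723, with a difference of 2.53 points. The next were at 17110423 and 17108126 on chromosome 11 (3.46 points) and at 179041416 and 179041189 on chromosome 5 (4.97 points), where the median over all pairs was 31.6 points. For YWHAQ, the gene with the largest change after CF Im68 siRNA, the nearest were at 191236308 and 191236391 on chromosome 2 (4.61 points), at 133538754 and 133539501 on chromosome 3 (4.74 points) and at 107268925 and 107269572 on chromosome 4 (5.29 points), against a median of 48.4 points. The nearest of 4774 pairs are close by selection. Nearest distances were not computed for other pairs, so whether these are unusually close was not tested.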

How the data were processed

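The 6 A-seq libraries of HEK293 cells were analysed, 1 per group. The files deposited by the authors hold, as read from their values and the labels' assay description, whole-number counts of read 3' ends per nucleotide and strand, not normalized. The positions are on hg19 (GRCh37), per the submitters' processing notes. No source used here gives the aligner, the treatment of multiply mapping reads and of PCR copies, or any filter on internal priming. The members, lists and rules were chosen with earlier results of these data known.

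Ends within 25 nt of the highest position were joined to a site on the libraries pooled at equal weight. Sites with a mean of at least 1 CPM were kept, and sites at most 5 kb apart on a strand formed a unit. The pair of a gene is its 2 most used sites with at least 5% of the window's reads each, and sites with that share were named. Pairs of the series were taken in the same way within a unit, by shares of the unit's reads. All 6 genes are named, and the 3 most alike pairs were given for the gene with the largest change after CF Im25 and after CF Im68 siRNA. Shares have Wilson intervals, their differences Newcombe intervals and levels exact Poisson intervals, at 95%. With 1 library per group no test between groups and no p-value is possible. The rules of size were checked on simulated counts with counting error only, so the check does not cover variation between libraries. Python 3.11.15, numpy 2.4.6, pandas 2.3.3, scipy 1.17.1 and, for TMM scaling, edgeR 4.0.16 in R 4.3.3 were used. Alternatives were other joining distances, site minimums, scalings, read minimums, definitions of the pair, thinning to the smallest library and the no siRNA control. No annotation on hg19 was used, so SFN, the 14-3-3 client genes and the siRNA target genes were not analysed here.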

Additional observations from a re-analysis of the deposited data

How the results depend on the processing

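Of 59 counts of called genes under the alternatives, 57 stayed within 1.5 times the reported count. The exceptions were the numbers of genes with a changed level after CF Im25 siRNA and after CF Im59 siRNA, 1 each against scrambled siRNA and 0 each with the no siRNA library as control, because YWHAB then had log2 ratios of -0.70 and -0.98. Of 317 values of single genes, 282 lay inside the interval of the reported value and 35 outside it, and 14 had another sign. Calls gained were YWHAH after CF Im68 siRNA with ends joined within 10 nt (21.5 points, interval 14.2 to 27.4) and YWHAZ for RNase I against alkaline hydrolysis with no minimum of reads (-24.2 points, interval -45.4 to -0.963). TMM scaling shifted the log2 ratios of all units by 0.18 after CF Im68 siRNA, 0.18 for RNase I against alkaline hydrolysis, -0.11 for scrambled against no siRNA and 0.10 after CF Im59 siRNA. Under it YWHAH turned sign for scrambled against no siRNA, as it did with the median of ratios, which also turned YWHAB for RNase I against alkaline hydrolysis to 0.02. The cause was not tested. No paired analysis was possible because each group held 1 library, and for the same reason no replicate could be left out. Depth limits YWHAZ most, with 25 to 70 reads at its pair.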

Other observations

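Reads on the strand opposite to the gene numbered 0 to 2 per library for YWHAB, 6 to 47 for YWHAE, 0 to 11 for YWHAG, 3 to 10 for YWHAH, 7 to 27 for YWHAQ and 0 to 18 for YWHAZ. For YWHAZ they were not few beside the gene's own reads, with 17 opposite and 88 sense reads after CF Im25 siRNA, 14 and 81 in the CF Im59 siRNA library, 18 and 65 with scrambled siRNA and 15 and 90 with no siRNA, while after RNase I they were 0 and 150 with CF Im68 siRNA and 3 and 81 with scrambled siRNA. A site of YWHAE far upstream of its pair, at 1302172, held 3.76% of the window's reads with CF Im68 siRNA (208 reads, Wilson interval 3.29 to 4.29) and 1.68% with scrambled siRNA after RNase I (57 reads, interval 1.30 to 2.17). It lies outside the rule for named sites and was chosen after its values were seen.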
